A study of Sus scrofa with 15 samples.

Results

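The mitochondrial ribosome and the channels that bring proteins into mitochondria were followed in pig granulosa cells over a week of culture. MRPL and MRPS genes are named for proteins of the large and small subunit of the mitochondrial ribosome. TIMM and TOMM genes are named for import across the inner and the outer membrane. The genes were those whose symbol on the array begins with 1 of these names followed by a digit. The classes rest on the symbols, and the place of each protein was not checked. This gave 76 of the 6765 genes that had a probe set with 1 symbol: 36 MRPL, 22 MRPS, 11 TIMM and 7 TOMM genes. They had 99 probe sets, and the probe set with the highest mean over all arrays stood for a gene. Probe sets that named several genes, among them those for MRPL22 and MRPL55, were left out, and TIMM23, TIMM17A, TOMM40 and MRPL12 were not analysed here. Granulosa cells line the ovarian follicle, support the egg and make estradiol and inhibin. The series compared granulosa cells derived from pig ovarian follicles (day 0) with cells on days 1, 2 and 4 of culture, labelled dedifferentiating, and on day 7, when they had grown to semiconfluence and are called DFOG cells. No day carried a genetic change or a drug in the labels, and strain, age, follicle size and culture medium are not given there. Total RNA was hybridised to Affymetrix porcine genome arrays, 3 for each of the 5 days and 15 in all. The labels call the replicates biological without saying whether they came from separate animals or cultures, so p-values measure only the spread between these arrays.

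Mitochondria make a handful of respiratory chain proteins on their own ribosomes from their own genome. The proteins of these ribosomes, and nearly all other mitochondrial proteins, are encoded in the nucleus, made in the cytosol and imported. Precursors pass the outer membrane through the TOM complex, are escorted across the space between the membranes by the small TIM chaperones where they are hydrophobic, and enter the matrix or inner membrane through the TIM23 or TIM22 channel, the former pulled by a motor built around the chaperone HSPA9. In granulosa cells mitochondria also hold the enzyme that starts progesterone synthesis.

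Levels are log2 intensities, so a difference of 1 is a factor of 2, and levels of different genes are not compared. No gene of the 76 had a day mean within or under the lower quartiles of the arrays (4.41 to 4.68). A change was called when the adjusted p (limma, all 15 arrays, Benjamini-Hochberg over 23999 probe sets) was under 0.05, and SD and SE values rest on n = 3 arrays for each day. The cells carried the granulosa marker INHA, the inhibin alpha subunit, at a day 0 mean of 14.26 ± 0.20 (SD), which was 7.05 ± 0.20 on day 7. The mean level of 11 granulosa markers was 9.21 to 9.48 on the day 0 arrays and 6.19 to 6.33 on those of day 7. Their highest day mean fell on day 0 for 8, on day 2 for 2 and on day 7 for 1. The granulosa transcription factor FOXL2, at a mean of 5.89 on day 0, lay below the median probe set of every array (the lowest median was 6.4). The mean level of 8 leukocyte markers was 4.46 to 4.87 on every array, about the lower quartile, and none of them was called on day 1, while CD14 rose on day 7 (1.67 ± 0.22). That of 8 endothelial markers was 4.95 to 5.45, with 2 called higher (PECAM1 and ERG) and 1 lower (TIE1) on both days, and with KDR and TEK below the lower quartile. The mean of 7 theca and stromal markers was 5.56 to 5.77 on the day 0 arrays and 7.30 to 7.39 on those of day 7. Of these, DCN (7.22 ± 0.73), LUM (5.95 ± 0.70) and TCF21 (1.34 ± 0.30) rose by day 7, and the theca markers INSL3 (-2.36 ± 0.23) and STAR (-0.96 ± 0.28) fell. On day 1, 1 of the 7 was higher and 1 lower. Of 6 oocyte markers, whose mean was 5.08 to 5.64 on day 0, GDF9 and ZP3 were lower on both days. In RNA from whole cultures, fewer cells of a type and less RNA per cell cannot be told apart. Measures other than the 76 genes moved with the days as well. The mean of 18 cell division genes lay between 9.26 and 9.48 on the day 0 arrays and between 7.33 and 7.75 a day later. It lay between 7.03 and 7.33 on day 2, between 8.34 and 9.48 on day 4 and between 8.45 and 8.90 on day 7. Of the day 4 and day 7 arrays only replicate 1 of day 4 reached the day 0 range. The actin control, whose 3′ probe set exceeds its 5′ probe set more when RNA is shorter, gave differences between 0.97 and 1.68 on day 0, between 0.18 and 1.01 on day 1 and between 0.02 and 0.68 on day 2. On day 4 it reached 2.12 on the replicate 2 array. The part of cell division, RNA length or the stromal markers in the results that follow was not tested.

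On the first day of culture the ribosome and import genes were raised more often than lowered, by modest amounts. Of the 76 genes 20 rose (26.3%) and 5 fell (6.58%), where 13.6% of all probe sets rose and 11.4% fell. Among the 6765 genes with 1 symbol the shares were 19.5% and 13.7%. The change was above 0 for 56 of the 76 genes (73.7%), against 49.9% of all probe sets, with a median of 0.25 against -0.00. When the dimmest 40% of probe sets were left out, the median of those that remained was 0.10, so part of this rise was shared by brighter probe sets. A rise of at least 2-fold was called for 3 genes and a fall of that size for 0, against 6.47% and 6.03% of all probe sets. When the arrays were quantile-normalized again the median was 0.14 with 16 rises and 6 falls, where 12.8% of all probe sets rose and 13.1% fell. After cyclic loess it was 0.09 with 15 rises and 7 falls, where 11.7% of all probe sets rose and 13.1% fell. The shares of genes with 1 symbol, which in the main fit were above those of all probe sets, were not computed under these normalizations. The number of falls was 3 once replicate 1 or 2 of day 0 or replicate 1 of day 1 was left out. Called or not, 34 of the 76 genes had all day 1 arrays above those of day 0 and 8 had all of them below, where 20.7% and 16.3% of all probe sets did.

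**Figure D1:**
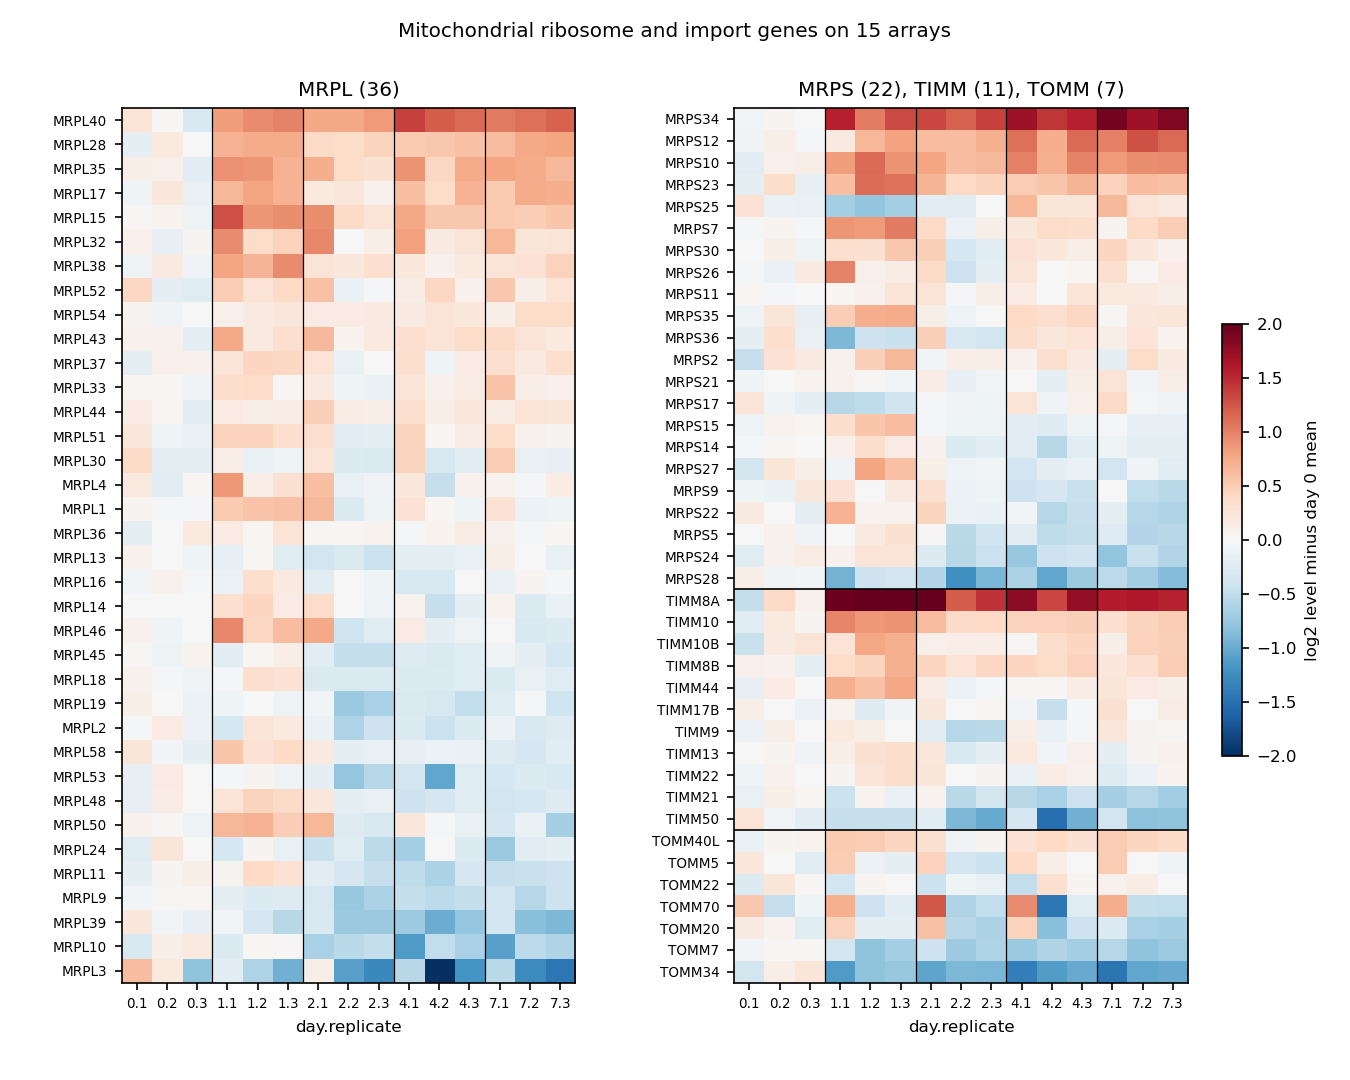
Each row is a gene and each column an array (day and replicate number), and the colour is the log2 level minus the gene's day 0 mean, cut at -2 and 2. Within a class genes are ordered by their day 7 change. Red prevails in the day 1 columns, and the replicate 1 array of day 2 is redder than the other two of that day.

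TIMM8A showed the largest change of the 76 genes. It partners with TIMM13 among the small chaperones of the space between the membranes, and its loss in people causes a deafness and dystonia syndrome. Its log2 level was 6.71, 7.57 and 7.27 on the day 0 arrays and 9.15, 9.61 and 9.59 on those of day 1. Every day 1 array lay above every day 0 array, and the change was 2.27 ± 0.28 (SE), or 4.81-fold, with an adjusted p of 4.8e-05. Its partner TIMM13 was at 10.44, 10.50 and 10.37 on day 0 and 10.56, 10.73 and 10.79 on day 1, a change of 0.25 ± 0.15 that was not called. The small chaperones as a group had 4 of 6 genes called higher and none lower on day 1. Among genes with 1 symbol 19.5% were called higher and 13.7% lower. For all 6 the highest of the 5 day means was on day 1, as it was for 24.1% of genes with 1 symbol. TIMM10, which forms a ring with TIMM9 that carries membrane proteins, went from 8.40, 8.83 and 8.70 to 9.61, 9.50 and 9.54. That rise was 0.91 ± 0.13, while TIMM9 itself, at 9.68, 9.92 and 9.81 and then 10.01, 9.92 and 9.81, overlapped between the days and was not called (0.10 ± 0.13). The other small chaperones that rose, named after their values were seen, were TIMM10B (0.59 ± 0.20) and TIMM8B (0.50 ± 0.13). The limma F test over all 5 days called neither (adjusted p = 0.185 and 0.055). The sign of the TIMM9 change turned to -0.04 and -0.11 under the 2 other normalizations.

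Of the TIM23 channel and its motor, TIMM44, which tethers the motor chaperone to the channel, rose. Its level was 6.83, 7.16 and 6.98 on day 0 and 7.69, 7.57 and 7.76 on day 1. The groups did not overlap, and the rise was 0.69 ± 0.12. Its other 2 probe sets gave 0.50 and 0.44, neither called, and with the mean of all 3 the change was 0.54 and the call was lost. TIMM50, the receptor that hands presequences to the channel, was at 10.28, 9.95 and 9.78 on day 0 and 9.54 on each array of day 1, a change of -0.46 ± 0.27 that was not called. TIMM21, TIMM17B and TIMM22, other parts of the inner membrane channels, had no call on day 1.

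Of the 22 MRPS genes, named for the small subunit of the mitochondrial ribosome, 7 (31.8%) were called higher and 3 (13.6%) lower. Among genes with 1 symbol 19.5% and 13.7% were, so the share of falls was near the background. MRPS34, a protein on which the stability of the small subunit depends, was at 8.26, 8.38 and 8.32 on day 0 and at 9.87, 9.34 and 9.64 on day 1. The lowest day 1 array stood almost a log2 unit above the highest of day 0, and the rise was 1.30 ± 0.14, or 2.46-fold, with an adjusted p of 1.9e-05. MRPS10 (0.96 ± 0.14), MRPS23 (0.93 ± 0.17) and MRPS7 (0.93 ± 0.15), other proteins of this subunit, rose by just under 2-fold. MRPS7 had values of 8.01, 8.11 and 8.02 on day 0 and 8.93, 8.90 and 9.09 on day 1. Its groups were far apart and each was tight. MRPS12, the mitochondrial counterpart of a bacterial protein of the decoding centre, rose by 0.55 ± 0.17. That call was lost without replicate 1 (0.51) or 3 (0.53) of day 0 or replicate 2 (0.49) or 3 (0.43) of day 1, after either other normalization (0.46 and 0.34) and with the mean of its probe sets (0.17).

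The 3 small-subunit genes that fell were MRPS25, MRPS28 and MRPS17. MRPS25 was at 9.16, 8.74 and 8.73 on day 0 and at 8.20, 8.08 and 8.20 on day 1, a fall of 0.71 ± 0.17 on the log2 scale without overlap. It was back at 8.66, 8.66 and 8.88 on day 2 and at 9.52, 9.14 and 9.05 on day 7. MRPS17, a protein of the same subunit, fell by 0.49 ± 0.16 on day 1 and was at 9.42, 9.37 and 9.37 on day 2, inside its day 0 range of 9.26 to 9.71. The day 2 levels of both genes thus lay at or near those of day 0. The MRPS17 call was lost without replicate 1 (-0.36) or 2 (-0.53) of day 0 or replicate 1 (-0.45), 2 (-0.48) or 3 (-0.53) of day 1, and in replicates 2 and 3 (-0.32). MRPS28 fell by 0.58 ± 0.19, a call that was lost without any of day 0 replicates 1, 2 and 3 (-0.52, -0.61 and -0.61) or day 1 replicate 1 (-0.40), and in replicates 2 and 3 (-0.33).

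Of the 36 MRPL genes, named for the large subunit, 7 were called higher (19.4%), a share near the 19.5% of genes with 1 symbol. They were called lower in 0 cases, where 13.7% of genes with 1 symbol were. MRPL15 was at 9.21, 9.25 and 9.09 on day 0 and at 10.48, 10.07 and 10.11 on day 1. The groups did not overlap and the rise was 1.04 ± 0.17, or 2.05-fold, and 0.62 with the mean of its probe sets. MRPL40, another protein of the large subunit, was at 9.23, 8.98 and 8.65 and then at 9.79, 9.90 and 9.94, a rise of 0.93 ± 0.14. The remaining large-subunit genes that rose, named after their values were seen, were MRPL35 (0.83 ± 0.16), MRPL38 (0.81 ± 0.12), MRPL28 (0.73 ± 0.12), MRPL17 (0.71 ± 0.13) and MRPL58 (0.41 ± 0.14), the last a hydrolase that frees stalled chains from the ribosome.

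At the outer membrane no receptor was called on day 1. TOMM20, the receptor that binds presequences, was at 10.08, 9.98 and 9.67 on day 0 and at 10.38, 9.72 and 9.71 on day 1, and TOMM22 changed by -0.11 ± 0.21. TOMM70, the receptor for carrier proteins, was at 7.94, 6.95 and 7.33 and then at 8.11, 7.00 and 7.19. The days overlapped for each of the receptors, and the replicate 1 arrays were the highest of TOMM70 on both days. The genes that fell were TOMM34 and TOMM7. TOMM34, a cytosolic partner of heat shock chaperones that keeps precursors unfolded, was at 8.28, 8.78 and 8.90 on day 0 and at 7.52, 7.84 and 7.89 on day 1. It fell without overlap, by 0.90 ± 0.19 on the log2 scale. TOMM7, a small subunit of the TOM complex, fell by 0.62 ± 0.14, from 11.53, 11.61 and 11.61 to 11.21, 10.78 and 10.90. TOMM40L, a relative of the pore protein named here after its value was seen, rose by 0.49 ± 0.12.

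**Figure D2:**
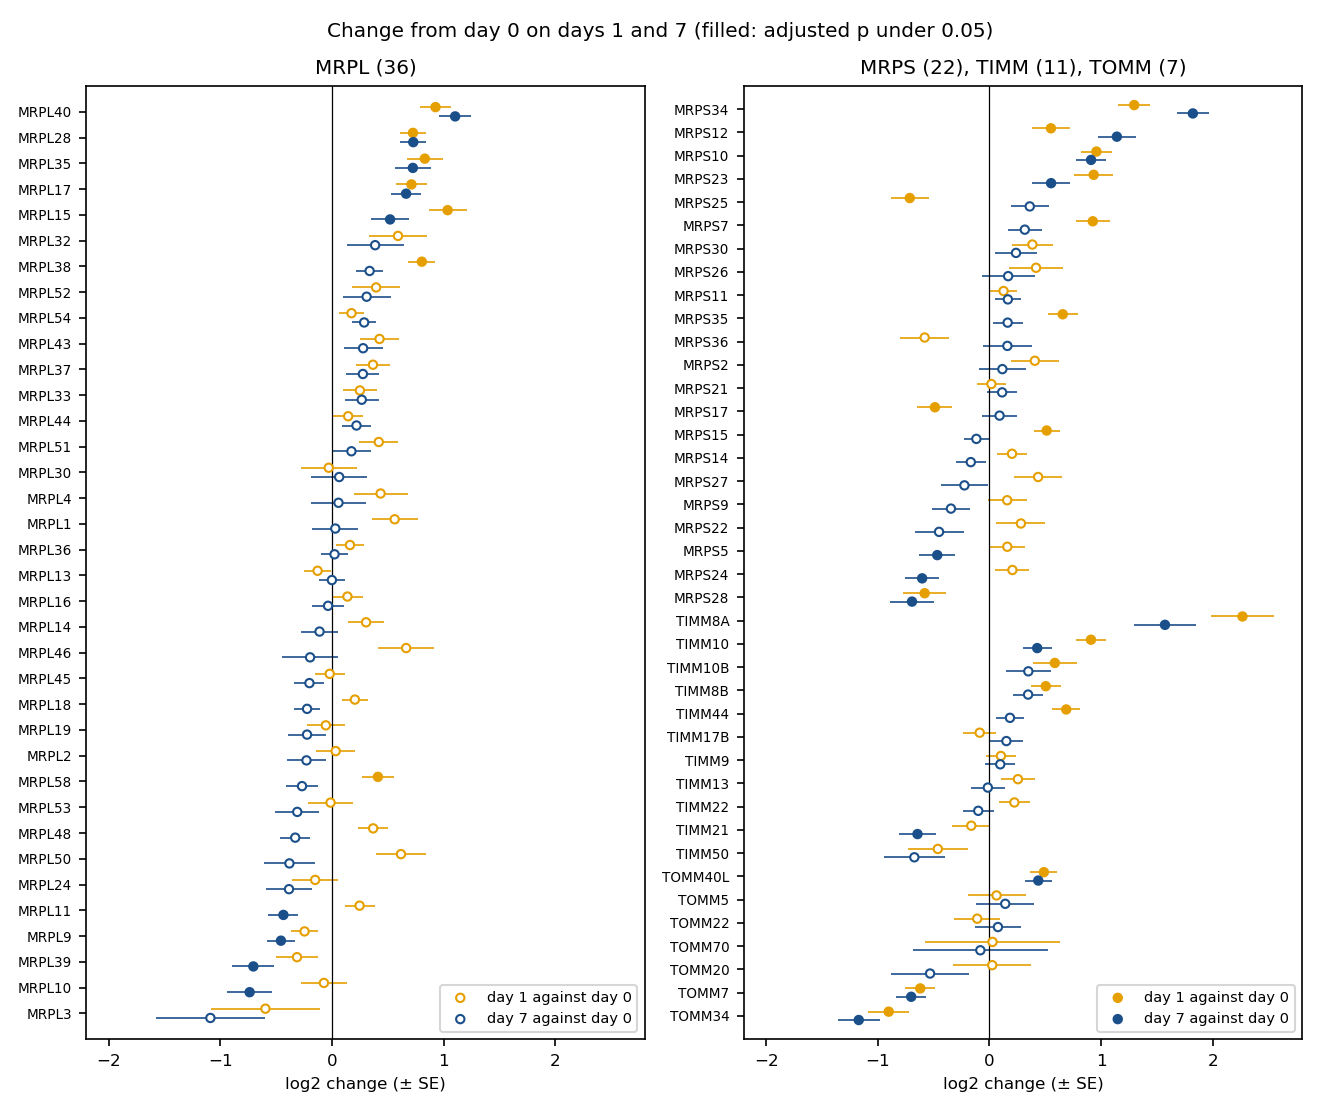
Points give the log2 change of each gene from day 0 on day 1 (orange) and day 7 (blue), with bars of 1 SE and filled points where the adjusted p was under 0.05. On day 1 TIMM8A stands apart at 2.27, and on day 7 MRPS34 (1.82) and TIMM8A (1.57) lead while TOMM34 (-1.17) is the lowest called gene.

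From day 1 to day 2 levels dropped back, and the size of the drop depended on the replicate. Of the 76 genes 10 fell and none rose, where 2.47% of all probe sets fell and 3.62% rose (3.84% and 5.5% of genes with 1 symbol). At an unadjusted p under 0.05, 34 were lower and 3 higher, and the change was below 0 for 68 of 76 with a median of -0.32, against -0.02 over all probe sets. No fall reached 2-fold, which 1% of all probe sets did. MRPS7 fell the most, by 0.79 ± 0.15, from its day 1 values to 8.45, 7.93 and 8.16. TIMM44 fell by 0.69 ± 0.12 to 7.14, 6.87 and 6.95, which placed it back within its day 0 range, and with the mean of its probe sets the change was -0.42 and not called. MRPS35, also of the small subunit, fell by 0.65 ± 0.14, and MRPS24 fell by 0.63 ± 0.15. The MRPS35 call was lost without replicate 2 of day 1 (-0.61) or replicate 2 (-0.60) or 3 (-0.64) of day 2, and that of MRPS24 without replicate 2 or 3 of day 1 (-0.60 each) or replicate 2 (-0.56) or 3 (-0.62) of day 2. The others that fell, named after their values were seen, were MRPL11, MRPL17, MRPL18, MRPL38, MRPS15 and TIMM9.

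The replicate 1 array of day 2 did not share this drop. The median change of the 76 genes from day 1 to day 2 was -0.05 between the replicate 1 arrays, with 35 genes above 0, and -0.43 in replicates 2 and 3, with 7 above 0. TIMM8A shows the difference, at 9.56 on the replicate 1 array of day 2 against 8.40 and 8.63 on the others. In a fit of replicates 2 and 3 alone 35 genes fell and 1 rose, where 8% of all probe sets fell and 8.8% rose. Without day 2 replicate 1 the number of falls was 25. It was 3 without day 2 replicate 2 or day 2 replicate 3, 4 without day 1 replicate 2, 5 without day 1 replicate 3 and 0 when only the 6 arrays of the days were fitted. With the replicate number as a block 16 fell and 1 rose, where 4.8% of all probe sets fell and 6.55% rose. Replicate 1 stood apart on the other days too. On the third principal component of all probe sets, an axis of variation shared among them, its arrays lay at 29.4 to 48.1. Those of replicates 2 and 3 lay at -41.4 to -5.78. The main fit had no term for the replicate. What set the replicate 1 array of day 2, or those of the other days, apart was not tested.

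**Figure D3:**
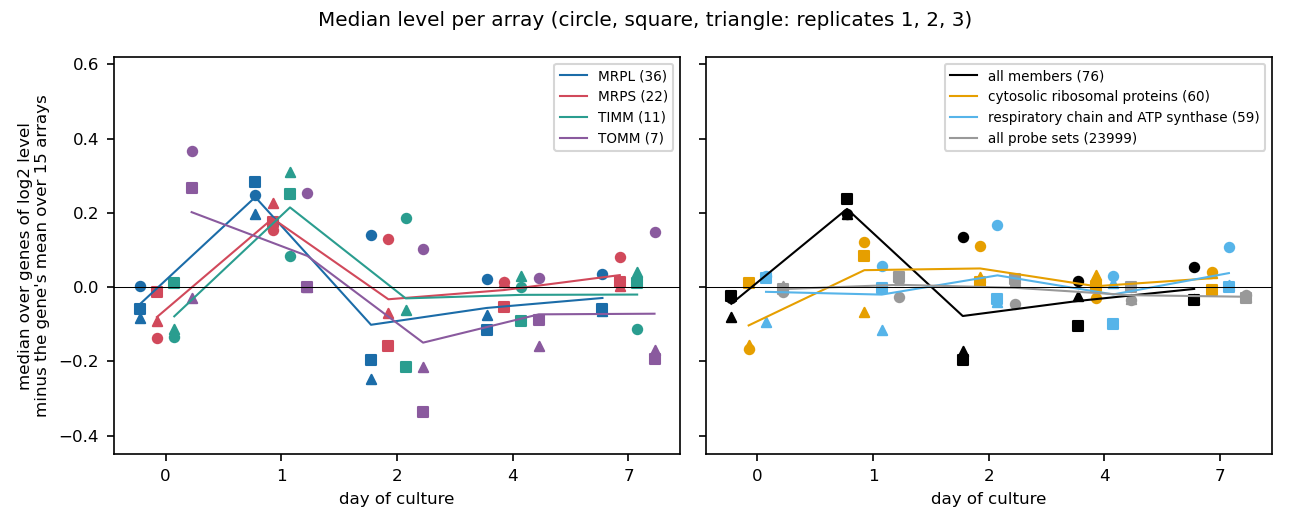
Each point is the median over a group of genes of the log2 level minus the gene's mean over the 15 arrays, 1 point per array, and lines join the means of the days. The 76 genes lie at 0.20 to 0.24 on the day 1 arrays and at 0.13, -0.20 and -0.17 on those of day 2, while all 23999 probe sets stay near 0.

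Against day 0, the day 2 cells had 10 genes higher and 8 lower (14.6% and 11.5% of all probe sets), with a median of -0.01. At least 2-fold changes were called for 2 that rose and 0 that fell (7.68% and 6.09% of all probe sets). The largest rises were again TIMM8A (1.68 ± 0.28) and MRPS34 (1.29 ± 0.14), followed by MRPL40 (0.80 ± 0.14) and MRPS10 (0.68 ± 0.14). TOMM34 (-0.96 ± 0.19), MRPS28 (-0.91 ± 0.19), MRPL39 (-0.60 ± 0.19), a large-subunit protein, and TOMM7 (-0.59 ± 0.14) had the largest falls. In replicates 2 and 3 TIMM8A rose by 1.10, and after cyclic loess MRPS10 rose by 0.44 and TOMM7 changed by -0.88. The balance of this comparison depended on the normalization, with 6 rises and 16 falls after quantile normalization again and 5 and 18 after cyclic loess. Of all probe sets 13% rose and 13.6% fell in the former, and 12.7% and 13.1% in the latter. There were 13 falls with the replicate number as a block, where 15.3% of all probe sets fell. The number of rises was 5 without day 0 replicate 1 and 6 without day 0 replicate 3 or day 2 replicate 1, and that of falls was 4 without replicate 2 of day 0 or replicate 2 or 3 of day 2 and 5 without day 0 replicate 3. The MRPL39 call was lost without replicate 1 (-0.49) or 2 (-0.62) of day 0 or replicate 2 or 3 of day 2 (-0.52 each).

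On day 4, when the mean of the cell division genes was 8.34 to 9.48, 13 of the 76 genes were higher than on day 0 and 11 lower (16.7% and 14% of all probe sets), with a median of 0.02. Of these 3 rose and 2 fell by at least 2-fold (9.29% and 6.59% of all probe sets). TIMM8A (1.63 ± 0.28), MRPS34 (1.56 ± 0.14), MRPL40 (1.23 ± 0.14) and MRPS12 (0.99 ± 0.17, or 0.53 with the mean of its probe sets) had risen the most. MRPL3, a large-subunit protein, had the largest fall, at 12, 11.58 and 10.57 on day 0 and 10.84, 9 and 10.19 on day 4. Its days overlapped, and the change of -1.38 ± 0.49 lost its call without replicate 1 (-1.07) or 2 (-1.28) of day 0 or replicate 2 (-0.87) or 3 (-1.46) of day 4. TOMM34 (-1.17 ± 0.19), TIMM50 (-0.94 ± 0.27) and MRPL39 (-0.83 ± 0.19) also fell. TIMM50, at 9.66, 8.49 and 9.04 on day 4, was lowest on the replicate 2 array, and its call was lost without that array (-0.65) or without day 0 replicate 1 (-0.80). MRPL3 was lowest on the same array, the day 4 array named above for its actin control difference. The part of RNA length in these falls was not tested. The falls numbered 7 without day 0 replicate 3 or day 4 replicate 2. After quantile normalization again there were 10 rises and 23 falls, where 14.9% of all probe sets rose and 16.2% fell. After cyclic loess there were 8 and 24, where 15.3% of all probe sets rose and 15.1% fell.

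Between days 2 and 4 limma called none of the 76 genes (0 higher, 0 lower), where 3.03% of all probe sets rose and 1.15% fell. At an unadjusted p under 0.05, 5 were higher and 2 lower. The replicates again differed, with a median of -0.14 in replicate 1 and 0.14 in replicates 2 and 3, and the call count was 1 higher and 1 lower with the replicate number as a block and 1 higher without day 2 replicate 1. Between days 4 and 7 none was called either, where 0.0458% of all probe sets rose and 0.0167% fell, and 1 gene was higher and 0 lower at an unadjusted p under 0.05. The median of that last step was 0.03.

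After a week the set was mixed. Most of its genes were within a factor of 2 of fresh cells, and so were most of all probe sets. For these the median distance between the highest and lowest day mean was 0.60. On day 7, 12 of the 76 genes were higher than on day 0 and 10 lower, where 16.4% of all probe sets were higher and 14.9% lower (23.4% and 15.4% of genes with 1 symbol). The median change was 0.07, against -0.05 over all probe sets and 0.05 over those left without the dimmest 40%. Of the 76 genes 42 lay above 0, and 56 changed by less than 0.5 in size. At least 2-fold changes were called for 4 genes that rose and 1 that fell (9.36% and 7.28% of all probe sets). Called or not, 20 of the 76 genes had all day 7 arrays above those of day 0 and 19 had all of them below, where 23% and 23.5% of all probe sets did. The falls numbered 6 without day 7 replicate 3. Other normalizations turned the median to -0.10 (quantile again, 11 rises and 17 falls) and -0.11 (cyclic loess, 10 and 17), so no direction is given for the set as a whole. Those normalizations moved the median of all probe sets by under 0.1. They called 15.1% of all probe sets higher and 17.2% lower (quantile again), and 15.7% and 15.8% (cyclic loess).

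Among the genes higher on day 7, MRPS34 led with 10.23, 10.02 and 10.18, against 8.26 to 8.38 on day 0. Its rise was 1.82 ± 0.14, or 3.54-fold, with an adjusted p of 3.7e-07. The day means of MRPS34 were 8.32, 9.62, 9.61, 9.88 and 10.14 in the order of the days, so the day 7 level was the highest of them. MRPS12 followed a like course, with 8.91, 9.46, 9.56, 9.89 and 10.05, and was 2.21-fold higher on day 7 (1.14 ± 0.17). Its other 2 probe sets, with changes of 0.76 and 0.57, were called as well. MRPL40 had a mean of 10.05 ± 0.07 (SD) on day 7 and a rise of 1.10 ± 0.14, or 2.15-fold. TIMM8A was at 8.75, 8.79 and 8.72, below its day 1 arrays and above those of day 0, a rise of 1.57 ± 0.28 or 2.97-fold.

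The other ribosomal genes that rose on day 7 were MRPS10 (0.91 ± 0.14), MRPL28 (0.73 ± 0.12), MRPL35 (0.72 ± 0.16) and MRPL17 (0.66 ± 0.13, or 0.42 after cyclic loess), and, named after their values were seen, MRPS23 (0.55 ± 0.17) and MRPL15 (0.52 ± 0.17). The import genes that rose were TIMM10 (0.43 ± 0.13) and, named likewise, TOMM40L (0.44 ± 0.12). TIMM10, at 8.98, 9.09 and 9.14, lay only just above its highest day 0 array of 8.83. Its call was lost without replicate 1 of day 0 (0.30) or replicate 2 (0.42) or 3 (0.39) of day 7, and after cyclic loess (0.28).

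**Figure D4:**
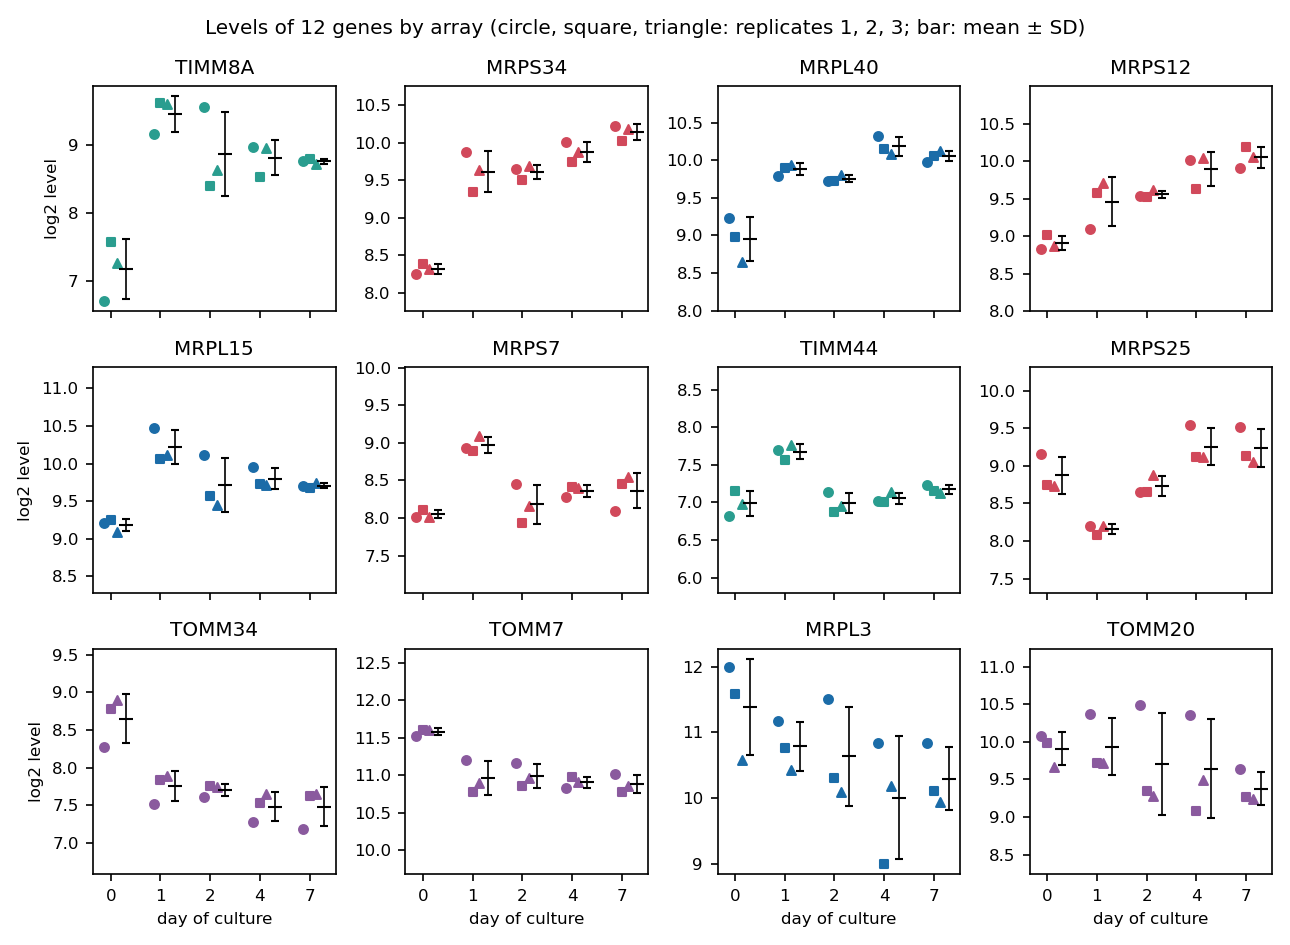
Log2 levels of 12 genes on each array by day, with the mean and SD (n = 3) as a bar beside each day. MRPS34 and MRPS12 are highest on day 7, TIMM44 and MRPS7 peak on day 1, MRPS25 dips on day 1, and the replicate 1 arrays of TOMM20 are the highest on every day.

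Among those lower on day 7, TOMM34 stood at 7.18, 7.62 and 7.64, a fall of 1.17 ± 0.19 on the log2 scale, which leaves 0.44 of the day 0 level. Its day means were 8.65, 7.75, 7.70, 7.48 and 7.48, so most of the difference was present by day 1. TOMM7 had means of 11.58, 10.96, 11, 10.91 and 10.88 and a day 7 change of -0.70 ± 0.14. MRPL10 and MRPL11, which belong to the stalk of the large subunit where translation factors dock, were also lower. MRPL10 was at 9.28, 9.72 and 9.80 on day 0, 9.32, 9.64 and 9.62 on day 1, and 8.51, 9.08 and 9 on day 7. Its day 1 arrays overlapped those of day 0 and its day 7 arrays lay below, a change of -0.74 ± 0.20 whose call was lost without replicate 3 of day 0 (-0.64) or replicate 1 of day 7 (-0.56). MRPL39 fell by 0.70 ± 0.19, a call lost without day 7 replicate 3 (-0.61). MRPL9, of the same subunit (-0.46 ± 0.12), and MRPL11 (-0.44 ± 0.13) are named after their values were seen.

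The small-subunit genes that fell were MRPS28 (-0.69 ± 0.19), MRPS24 (-0.60 ± 0.15) and MRPS5 (-0.47 ± 0.16), which sits near the entry of the messenger RNA. MRPS24 was at 8.84, 9.17 and 9.22 on day 0 and at 8.29, 8.64 and 8.5 on day 7, without overlap. MRPS28 lost its call without day 7 replicate 3 (-0.61). MRPS5 lost it without any of day 0 replicates 1, 2 and 3 (-0.47, -0.43 and -0.51), day 7 replicate 2 (-0.41) or day 7 replicate 3 (-0.42). TIMM21, which links the TIM23 channel to assembling respiratory complexes, fell by 0.64 ± 0.17, from 8.49, 8.75 and 8.68 to 7.98, 8.07 and 7.95. TIMM50 (-0.67 ± 0.27, adjusted p = 0.0769) was not called on day 7, and was called with the replicate number as a block and under both other normalizations (-0.85 and -0.86). MRPL3 changed by -1.09 ± 0.49 and was not called through its brightest probe set, while its other 2 probe sets gave -1.12 and -1.11 and were called.

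No TOM receptor was called on day 7 either. TOMM20 was at 9.63, 9.26 and 9.24, below its day 0 arrays, a change of -0.53 ± 0.35 from day 0 (adjusted p = 0.283). TOMM22, the central receptor, changed by 0.08 ± 0.21 and TOMM70 by -0.08 ± 0.60. The errors of these differences are wide, above all for TOMM70, whose 3 arrays of day 4 ran from 5.97 to 8.36. In a fit of replicates 2 and 3 only, TOMM20 was called at -0.57. TIMM9 changed by 0.10 ± 0.13 and TIMM44 by 0.18 ± 0.12, and neither was called on day 7.

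Over all 5 days the limma F test called 35 of the 76 genes (46.1%), a share near that of all genes with 1 symbol (46.5%) and above that of all probe sets (35.9%). Few of the 76, 7 (9.21%), also had day means at least 1 apart, against 23.6% of all probe sets. The median distance between the highest and lowest day mean was 0.58, near the 0.60 of all probe sets. It was 0.69 for genes with 1 symbol. The highest mean fell on day 1 for 45 of the 76 genes (59.2%), against 24.1% of all genes with 1 symbol, and on days 0, 2, 4 and 7 for 14, 2, 5 and 10. The count was 44 after quantile normalization again, 40 after cyclic loess, 47 in replicates 2 and 3 and 44 to 47 without any single array. By class it was 21 of 36 MRPL, 14 of 22 MRPS, 8 of 11 TIMM and 2 of 7 TOMM genes. Whether this share differs from that of other genes was not tested.

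Genes of the cytosolic ribosome and of the respiratory chain, the complexes that the mitochondrial ribosome helps to build, were read beside these. Of 60 cytosolic ribosomal protein genes 51.7% had their maximum on day 1, and 6 rose (10%) and 0 fell on day 1, with a median of 0.17. That share of rises was below the 19.5% of genes with 1 symbol. Their step from day 1 to day 2 had a median of -0.04 with 1 gene higher and none lower (limma). Of 59 genes of the respiratory chain and ATP synthase 22% had their maximum on day 1, with 4 higher (6.78%) and 3 lower (5.08%) and a median of -0.00 on day 1. On day 7, 8 were higher (13.6%) and 6 lower (10.2%), against 23.4% and 15.4% of genes with 1 symbol. The median distance between the highest and lowest day mean was 0.23 for the cytosolic ribosomal genes and 0.36 for those of the respiratory chain. It was 0.58 for the 76 genes. The differences between the groups were not tested.

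Several probe sets measured 17 of the 76 genes, and they could differ. In 13 of the 17 all probe sets changed in the same direction on day 1, and likewise in 13 on day 7, and no gene had probe sets called in opposite directions. For MRPL33 the brightest probe set gave 0.25 and 0.27 on days 1 and 7, uncalled, and the other gave 0.96 and 1.31, called. For MRPL52 the brightest gave 0.40 on day 1, uncalled, and a dimmer probe set gave -0.64, called. Both are large-subunit genes, singled out after their values were seen. The size and the call of MRPL33 depend on the probe set, and for MRPL52 so does the direction.

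The wider upkeep of mitochondria was read from 8 lists with 100 measured genes. On day 1, 21 of these rose and 13 fell, and on day 7, 13 rose and 16 fell. Among genes with 1 symbol 19.5% rose and 13.7% fell on day 1, and 23.4% and 15.4% on day 7. The counts of each list below are to be read beside these shares. The lists are small, and whether any differs from these shares was not tested. After quantile normalization again the day 7 numbers were 7 and 26, and after cyclic loess 7 and 25. The lists are described in turn by role.

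Among 9 regulators of mitochondrial gene programmes 3 rose and 1 fell on day 1, and again on day 7. MYC, a growth factor-driven activator of ribosome and mitochondrial genes among many others, was at 5.97, 6.39 and 6.66 on day 0, 10.06, 9.63 and 9.91 on day 1 and 9.40, 9.46 and 9.49 on day 7. The rise was 3.53 ± 0.18 on day 1 and 3.11 ± 0.18 on day 7. PPRC1, a serum-responsive coactivator related to PGC-1, went from 7.17, 6.77 and 6.39 to 8.84, 8.95 and 9.02 on day 1, a rise of 2.16 ± 0.19, and was still 1.90 ± 0.19 up on day 7. With the mean of its probe sets these were 1.30 and 0.92. Its relative PPARGC1A was at 4.82, 5.05 and 5.90 on day 0 and 6.27, 5.04 and 5.69 on day 1, overlapping and not called (0.42 ± 0.49). TFE3, a lysosomal and metabolic transcription factor, rose by 0.77 ± 0.15 and 0.92 ± 0.15 on days 1 and 7, and SIRT3, the main deacetylase of the matrix, fell by 0.72 ± 0.14 and 0.82 ± 0.14 on the log2 scale.

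Of 13 genes for mitochondrial DNA upkeep and transcription 2 rose and 1 fell on day 1, and 3 rose and 1 fell on day 7. TFAM, which packages the mitochondrial genome and starts its transcription, was at 9.22, 9.19 and 9.17 on day 0, 9.46, 9.60 and 9.42 on day 1 and 9.22, 9.31 and 9.20 on day 7. Its day 1 arrays lay above those of day 0 but the change of 0.29 ± 0.11 was not called (adjusted p = 0.0723). MTERF3, which binds the mitochondrial genome and acts in ribosome assembly, rose by 0.81 ± 0.14 on day 1 and 0.60 ± 0.14 on day 7. With the mean of its probe sets these were 0.36 and 0.29, the latter uncalled. SSBP1, the mitochondrial single-strand DNA-binding protein, rose by 0.69 ± 0.23 and 0.71 ± 0.23. SUCLA2 (0.82 ± 0.18) rose and DGUOK (-0.81 ± 0.26) fell on day 7, both of which help supply nucleotides for mitochondrial DNA. The SSBP1 calls were lost without day 0 replicate 1 (0.60 and 0.62) or 2 (0.69 and 0.71), on day 1 also without day 0 replicate 3 (0.77) or day 1 replicate 1 (0.56) or 3 (0.71), and on day 7 without day 7 replicate 1 (0.59) or 2 (0.74). They were also lost with the mean of its probe sets (0.30 and 0.15) and after cyclic loess (0.46 and 0.47), and on day 7 after quantile normalization again (0.48). The DGUOK call was lost without day 0 replicate 2 (-0.65) or 3 (-0.68) or day 7 replicate 1 (-0.71), 2 (-0.83) or 3 (-0.87).

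Of 21 translation factors and ribosome assembly genes 5 rose and 1 fell on day 1, and 2 rose and 4 fell on day 7. TUFM, the mitochondrial elongation factor Tu, was at 9.75, 9.81 and 9.87 on day 0, 11.04, 10.50 and 10.81 on day 1 and 10.22, 10.29 and 10.36 on day 7. The rise was 0.97 ± 0.16 on day 1, and the smaller one on day 7 (0.48 ± 0.16) was not called once any 1 of the 6 arrays was left out (0.44 to 0.52) or after either other normalization (0.27 and 0.25). METTL17, an assembly factor of the small subunit, stood at 9.40, 10.44 and 10.55 on day 0, 9.92, 9.22 and 8.96 on day 1 and 8, 7.91 and 8.14 on day 7. Days 0 and 1 overlapped, and the day 7 fall was 2.11 ± 0.29 on the log2 scale. ERAL1, a chaperone of the small-subunit RNA, and DHX30, an assembly helicase, fell on day 7 by 0.82 ± 0.18 and 0.64 ± 0.14, DHX30 uncalled with the mean of its probe sets (-0.16). RPUSD4, which modifies the large-subunit RNA, changed by -0.71 ± 0.42 on day 7 without a call.

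Of 4 mitochondrial ribosome proteins that carry other symbols 1 rose on day 1 and none was called on day 7. PTCD3, of the small subunit, rose by 0.66 ± 0.17 on day 1, a call lost without day 1 replicate 3 (0.56). DAP3 (0.32 ± 0.14), CHCHD1 (0.33 ± 0.14) and GADD45GIP1 (0.32 ± 0.16) gave similar values on day 1 without a call. The 3 CHCHD1 arrays of day 1, at 9.98, 10.02 and 9.98, lay above the 9.65, 9.67 and 9.66 of day 0.

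The 11 enzymes that charge mitochondrial transfer RNAs had 2 rises and 4 falls on day 1 and 1 rise and 5 falls on day 7. GARS, which serves the cytosol as well as mitochondria, was the gene that rose on day 7, by 1.80 ± 0.13, after 1.52 ± 0.13 on day 1. VARS2, FARS2 and GATB act in mitochondria alone and were lower. VARS2 went from 7.66, 7.50 and 7.63 on day 0 to 6.4, 6.37 and 6.37 a day later and 6.21, 5.90 and 6.28 on day 7, a fall of 1.22 ± 0.15 and then 1.47 ± 0.15 on the log2 scale. GATB, part of the complex that makes glutaminyl transfer RNA, changed by -0.92 ± 0.16 and -1.32 ± 0.16, and FARS2 by -0.88 ± 0.20 and -1.01 ± 0.20.

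Of 16 partners in import, sorting and processing 3 rose and 1 fell on day 1, and 1 rose and 2 fell on day 7. HSPA9, the motor chaperone held by TIMM44, was at 11.51, 11.46 and 11.56 on day 0, 12.25, 12.28 and 12.30 on day 1 and 11.46, 11.66 and 11.80 on day 7. GRPEL1, its nucleotide exchange factor and named after its value was seen, was at 8.93, 9.03 and 8.97, then 9.84, 9.76 and 9.78, then 9.26, 9.18 and 9.27. Both rose on day 1, by 0.76 ± 0.17 and 0.82 ± 0.14, and neither was called on day 7 (0.13 ± 0.17 and 0.26 ± 0.14). HSPA9 was uncalled on day 1 with the mean of its probe sets (1.06) and called at 0.50 after cyclic loess. MIPEP, a presequence peptidase, fell by 0.48 ± 0.13 on day 7, while MTX2 (0.69 ± 0.28), MTCH1 (0.67 ± 0.35) and MTCH2 (0.58 ± 0.34), all proteins of the outer membrane, were not called.

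Of 13 folding and quality control genes 2 rose and 3 fell on day 1, and 1 rose and 3 fell on day 7. HSPE1, the small partner of the matrix chaperonin, fell from 12.84, 13.03 and 12.66 to 12.31, 12 and 11.88 by day 1 and 12.10, 11.76 and 11.76 on day 7 (-0.78 ± 0.18 and -0.97 ± 0.18). The chaperonin HSPD1 changed by -0.38 ± 0.16 and -0.27 ± 0.16 and was not called, and the protease LONP1 by -0.00 ± 0.13 and -0.20 ± 0.13. HSPD1 was called lower after quantile normalization again (-0.45 and -0.47) and after cyclic loess (-0.65 and -0.59), and on day 1 also with the replicate number as a block (-0.38) and in replicates 2 and 3 (-0.41). The stress protease OMA1 fell by 0.71 ± 0.15 and 0.78 ± 0.15, and DDIT3, a transcription factor of the stress response, rose by 1.34 ± 0.26 on day 1 and was not called on day 7 (0.53 ± 0.26). STOML2, a scaffold of the inner membrane, fell by 0.57 ± 0.17 on day 7, a call lost without day 0 replicate 3 (-0.55) or day 7 replicate 2 (-0.50) or 3 (-0.52).

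Of 13 fusion, fission and mitophagy genes 3 rose and 2 fell on day 1, and 2 rose and none fell on day 7. MTFR1, a regulator of fission, went from 6.81, 7.33 and 6.45 to 8.41, 8.36 and 8.30 within a day and 8.69, 8.47 and 8.33 on day 7, a rise of 1.49 ± 0.22 and 1.63 ± 0.22. PINK1, the kinase that marks damaged mitochondria for removal, fell by 1.08 ± 0.31 on day 1 and was not called on day 7 (-0.70 ± 0.31). Its day 1 arrays were 8.99, 8 and 7.88, of which the first overlapped the day 0 values of 8.96, 9.56 and 9.58. That call was lost without day 0 replicate 2 or 3 (-0.98 each) or day 1 replicate 2 (-0.93) or 3 (-0.88), and in replicates 2 and 3 the fall was 1.63 on the log2 scale. MFF, a fission receptor, rose by 0.57 ± 0.20 on day 7, a call lost without day 0 replicate 2 (0.57) or 3 (0.50) or day 7 replicate 1 (0.41) or 2 (0.63). The MFF call was also lost after quantile normalization again (0.35), cyclic loess (0.31) and a shift of the arrays to 1 median (0.53). BNIP3L, a mitophagy receptor, changed by 0.59 ± 0.23 without a call.

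**Figure D5:**
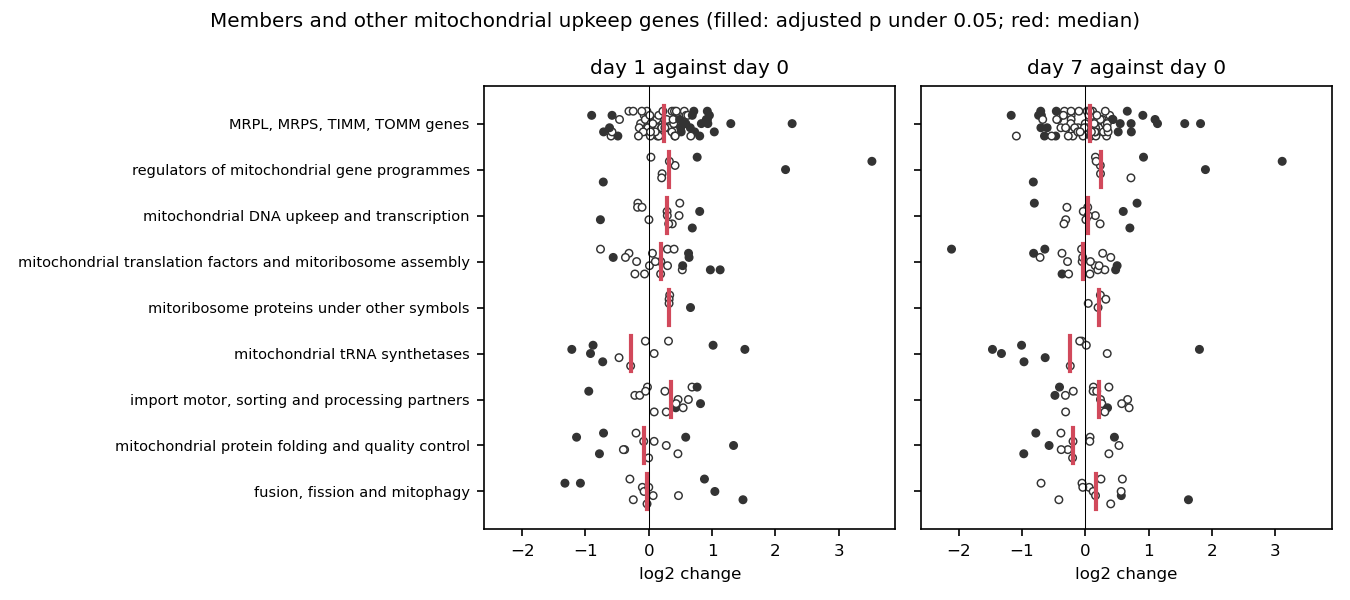
Each point is the log2 change of a gene from day 0 on day 1 (left) or day 7 (right), filled where the adjusted p was under 0.05, with the 76 ribosome and import genes in the top row and 8 lists of other mitochondrial upkeep genes beneath. Red bars are medians, which for the top row are 0.25 on day 1 and 0.07 on day 7, and MYC is the point furthest to the right.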

How the data were processed

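Values of 15 porcine arrays were used as deposited. They are log2 intensities made by the authors with RMA, per the submitters' processing notes, in a version not given in the sources used here. RMA usually makes array distributions alike, and then a shift of most transcripts would not be seen. Here the arrays still differed somewhat, with medians of 6.40 to 6.55 and lower quartiles of 4.41 to 4.68. Of 24123 probe sets 124 controls were left out. Symbols came from the platform annotation: 10069 probe sets had 1 symbol, 198 several and 13732 none. Day was fitted as a factor with limma 3.58.1 in R 4.3.3 (lmFit, eBayes). On simulated data the fit recovered 6%, 57% and 92% of added changes of 0.5, 1 and 2 on day 1 against day 0. There were 7 false calls among the 23799 probe sets left unchanged. So few changed probe sets make the adjusted p threshold stricter than in the real data, and these shares do not carry over to it. The genes and lists were chosen with earlier results of these data known. Named genes were the 8 largest called rises and falls on days 1 and 7, the 4 largest elsewhere, the 4 largest of each list on day 7, and a few fixed by name. Replicate numbers were checked as pairs by correlating how arrays departed from their day means, which was above 0.1 for every pair except in day 1 against day 0 (0.0609 to 0.333); deviations within a day sum to 0, so replicate 1 alone could give this. Alternatives were other normalizations, a filter on dim probe sets, trend and robust eBayes, a replicate block, a 2-fold minimum, subsets of arrays and the mean of a gene's probe sets. The single changes of genes named after their values were seen were not read under these alternatives. Promoter and protein sequences were not used here.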

Additional observations from a re-analysis of the deposited data

How the results depend on the processing

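Leaving out each array in turn, the counts of genes higher and lower ran over 16 to 20 and 3 to 4 on day 1, 5 to 8 and 4 to 11 on day 2, 9 to 13 and 7 to 11 on day 4, and 9 to 12 and 6 to 10 on day 7, each against day 0. From day 1 to day 2 they were 0 and 3 to 25, from day 2 to day 4 they were 0 to 1 and 0, and from day 4 to day 7 both stayed 0. The F test called 29 to 43, and 44 to 47 genes had their maximum on day 1. The upkeep lists gave 18 to 20 higher and 12 to 16 lower on day 1, and 9 to 10 and 11 to 15 on day 7.

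With a minimum of 2-fold the counts were 3 and 0 on day 1, 2 and 0 on day 2, 3 and 2 on day 4 and 4 and 1 on day 7 against day 0, with 0 lower from day 1 to day 2, 7 in the F test, and 8 and 4 (day 1) and 4 and 4 (day 7) in the upkeep lists. With only the arrays of the days compared there were 3 lower on day 1, 5 and 4 called on day 2, 8 and 6 on day 4, and 0 lower from day 1 to day 2. Quantile normalization again gave 6 and 16 on day 2, 23 lower on day 4, 17 lower on day 7, 1 higher from day 2 to day 4, and 7 and 26 in the upkeep lists on day 7. Cyclic loess gave 5 and 18, 8 and 24, 17 lower and 1 higher for the same comparisons, and in the upkeep lists 20 lower on day 1 and 7 and 25 on day 7. Shifting arrays to the same median gave 13 lower on day 2. Replicates 2 and 3 alone gave 6 and 18 on day 2, 18 lower on day 4, 16 lower on day 7, 1 and 35 from day 1 to day 2, 2 higher from day 2 to day 4 and 55 in the F test. Of all probe sets that fit called 17.7% lower on day 2, 20.4% on day 4 and 21.3% on day 7. With the replicate number as a block the counts were 28 and 5 on day 1, 13 lower on day 2, 15 and 14 on day 7, 1 and 16 from day 1 to day 2, 1 and 1 from day 2 to day 4, and 46 in the F test. The block raised the calls over all probe sets too, to 18.2% higher and 14.9% lower on day 1 and 20.4% and 19.6% on day 7. Of the named changes of the 76 genes the block altered only the call of TIMM50 on day 7. The minimum restricts calls by construction, and the cause of the other differences was not tested.

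Direction turned only for changes that were not called. After quantile normalization again, cyclic loess and in replicates 2 and 3, in that order, day 1 changes were -0.11, -0.19 and -0.11 for TOMM20, -0.048, -0.011 and -0.043 for TOMM70, and -0.041, -0.11 and -0.0067 for TIMM9, and day 7 changes were -0.13, -0.16 and -0.064 for TOMM22 and -0.10, -0.11 and -0.027 for TIMM9. TFAM on day 7 was -0.10 and -0.13 under the normalizations and -0.033 with the mean of its probe sets, and PPARGC1A on day 1 was -0.11 in replicates 2 and 3. Without single arrays the ranges were -0.20 to 0.14 (TOMM20), -0.24 to 0.029 (TOMM22) and -0.31 to 0.30 (TOMM70) on day 1, and -0.058 to 0.20 (TOMM22) and -0.48 to 0.19 (TOMM70) on day 7. Of 63 named changes of the 76 genes 52 were called, and 39 kept the call without every single array. With only the arrays of the days compared, calls were lost for MRPS12, MRPS17, MRPS28, PINK1 and PTCD3 on day 1, MRPL39 on day 2, MRPL3 and TIMM50 on day 4 and TIMM10 on day 7, and from day 1 to day 2 for MRPS7, MRPS24, MRPS35 and TIMM44. With trend and robust settings they were lost for MRPS28 on day 1 and MRPS5 on day 7. In the simulated data 6% of added changes of 0.5 were recovered on day 1. Far fewer probe sets changed there than were called here, so that share does not carry over to these calls.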
